A study of Mus musculus with 6 samples.

Results

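The 10 genes described here encode transcription factors, chaperones and a degradation factor of the unfolded protein response, and were followed in bone-forming osteoblasts (OBs). They were taken by symbol from a list set with earlier results of these data known: *Xbp1*, *Atf4*, *Atf6*, *Ddit3*, *Creb3l1*, *Hspa5*, *Hsp90b1*, *Pdia4*, *Sdf2l1* and *Herpud1*, 10 of the 23284 genes listed for each sample. ECFP+ OBs had been sorted from ectopic bone that grew on a collagen sponge loaded with 2.5 μg BMP-2 and implanted under the skin of male *Col2.3*-ECFP mice aged 12 to 16 weeks. The sponges were taken on day 10 (3 samples) or day 14 (3 samples), and both groups carried the same reporter and the same BMP-2. The *Col2.3* fragment of the type I collagen promoter drives ECFP, so that the sorted cells are defined by the activity of a collagen promoter. How many mice went into a sample is not given in the sources used here, and p-values therefore measure only the spread between these samples.

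The endoplasmic reticulum (ER) folds the proteins a cell secretes, and OBs secrete type I collagen in bulk. When unfolded protein builds up in the ER, 3 membrane sensors respond. IRE1 removes a short intron from *Xbp1* mRNA, PERK phosphorylates eIF2α and so favours the translation of ATF4, and ATF6 moves to the Golgi, where proteases release its active part. The freed factors raise transcription of chaperones, of disulphide isomerases and of genes for ER-associated degradation (ERAD). CREB3L1, also called OASIS, is a relative of ATF6 that is processed in the same manner and is known in OBs as an activator of *Col1a1*.

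The sequences through which these factors work are shown first. XBP1, ATF4, ATF6 and CREB3L1 are controlled largely on the RNA or the protein, which the levels of their genes do not show. The stretch that IRE1 removes from *Xbp1* mRNA is shown in capitals with its flanks in lower case, as DNA letters. It covers bases 815 to 840 of the 2129 bases of the GENCODE transcript Xbp1-201:
Xbp1 intron: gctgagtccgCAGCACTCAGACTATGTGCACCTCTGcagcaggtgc
The 26 bases in capitals shift the reading frame when they are removed. The deposited values pool both forms of *Xbp1*, so that none of the values below measures its splicing.

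Promoters were found for 8 of the 10 genes in a table of RefSeq (GRCm38.p6), and all genes but *Creb3l1* and *Atf6* were among them. Each window ran from 250 bases before to 50 bases after the start of the gene in that table and was searched on both strands. This start can differ from that in GENCODE, which for *Hspa5* is chr2:34771970, inside the stretch printed below. Searched were the ER stress element (ERSE; CCAAT and CCACG with 9 bases between them), ERSE-II (ATTGG and CCACG with 1 base between them), the XBP1-type element TGACGTG, the cyclic AMP element TGACGTCA and the ATF4-type element TGATGCAA. Both ERSE types hold the CCACG block. The promoters of 3 members that held an ERSE or ERSE-II are shown 5′ to 3′ on the strand of the gene, for the 250 bases before the start, with the fixed letters of each match in capitals:
Hspa5, chr2:34771840-34772089, + strand: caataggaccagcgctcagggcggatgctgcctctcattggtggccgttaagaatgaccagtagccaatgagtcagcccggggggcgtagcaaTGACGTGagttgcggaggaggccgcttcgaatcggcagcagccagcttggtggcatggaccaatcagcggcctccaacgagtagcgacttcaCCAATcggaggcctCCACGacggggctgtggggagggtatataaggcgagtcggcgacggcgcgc
Hsp90b1, chr10:86705445-86705694, − strand: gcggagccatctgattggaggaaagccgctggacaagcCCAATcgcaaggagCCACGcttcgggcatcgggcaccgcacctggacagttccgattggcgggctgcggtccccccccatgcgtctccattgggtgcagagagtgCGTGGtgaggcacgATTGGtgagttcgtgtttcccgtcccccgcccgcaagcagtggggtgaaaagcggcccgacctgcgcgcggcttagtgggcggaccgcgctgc
Herpud1, chr8:94386179-94386428, + strand: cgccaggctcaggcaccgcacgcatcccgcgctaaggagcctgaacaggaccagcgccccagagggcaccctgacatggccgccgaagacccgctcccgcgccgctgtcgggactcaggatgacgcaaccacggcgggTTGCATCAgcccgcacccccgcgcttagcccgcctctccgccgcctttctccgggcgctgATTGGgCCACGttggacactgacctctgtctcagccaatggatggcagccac
In *Hspa5* the ERSE lay at −65 to −47 and the XBP1-type element at −157 to −151, counted from the start. *Hsp90b1* held an ERSE at −212 to −194 and another, on the opposite strand, at −107 to −89. *Herpud1* held ERSE-II at −52 to −42 and the ATF4-type element, on the opposite strand, at −112 to −105. Of 32851 promoter windows searched, 0.119% held an ERSE, 0.0365% an ERSE-II, 2.01% the XBP1-type element, 1.79% the cyclic AMP element and 0.895% the ATF4-type element. The cyclic AMP element was in none of the 8 windows. A match is a run of letters and no measurement of binding.

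Values were FPKM, a fragment density scaled to exon length and to the mapped total of the sample, so that levels can be compared between genes. The depth, estimated from the steps between low FPKM values, was 4557380 to 7790230 reads per sample. *Sdf2l1*, the member with the fewest reads, had an estimated 104 reads in its lowest sample, a counting error of 9.82%, and *Hspa5* had at least 15694. Over all genes tested, day 14 replicate 1 correlated with the other samples at a Pearson r of 0.877 to 0.900 on log2 values. Day 14 replicates 2 and 3 correlated with each other at 0.930. In the sums of chondrocyte and myeloid markers, however, day 14 replicate 2 stood apart from the other samples of its day. The summed level of 10 chondrocyte markers was 1030 FPKM in this sample, 114 and 73.6 FPKM in replicates 1 and 3, and 414 to 851 FPKM on day 10. The summed level of 9 myeloid markers was 11.6 FPKM in it, 257 and 609 FPKM in replicates 1 and 3, and 34.9 to 147 FPKM on day 10, although CD45+ cells had been gated out. The summed level of 8 OB markers was 39482 to 74012 FPKM on day 10 and 26250 to 52794 FPKM on day 14, a sum carried mainly by *Col1a1*, *Col1a2* and *Ibsp*. All 8 were listed above 0 in every sample, but *Dlx5* was at 0.979 and 1.01 FPKM in day 14 replicates 1 and 3 and at 7.56 to 9.88 FPKM in the other samples. Markers of B and plasma cells, which also secrete heavily, summed to no more than 8.72 FPKM, and endothelial markers to no more than 8.42 FPKM. Day 14 bone had been digested with collagenase 2 times and day 10 bone 1 time, and the day and the digestion cannot be told apart. The titles place all later samples on day 14, whereas the free-text descriptions give day 14, 15 and 16 for replicates 1, 2 and 3. The titles were used.

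All 10 genes were expressed in every sample, and 7 of them ranked among the 1000 genes with the highest mean FPKM on both days. *Hspa5*, which encodes the ER chaperone BiP, ranked 36 on day 10 and 37 on day 14, and *Hsp90b1*, which encodes GRP94, ranked 155 and 162. *Atf6* was the lowest member, with ranks of 5169 and 4131. By mean level over the 6 samples the order was *Hspa5*, *Hsp90b1*, *Xbp1*, *Pdia4*, *Herpud1*, *Creb3l1*, *Atf4*, *Ddit3*, *Sdf2l1* and *Atf6*. *Hspa5* and *Hsp90b1* stood above their next neighbours with no overlap between samples, and so did *Atf4* above *Ddit3* and *Sdf2l1* above *Atf6*. The neighbours from *Xbp1* to *Atf4* overlapped, as did *Ddit3* and *Sdf2l1*.

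**Figure D1:**
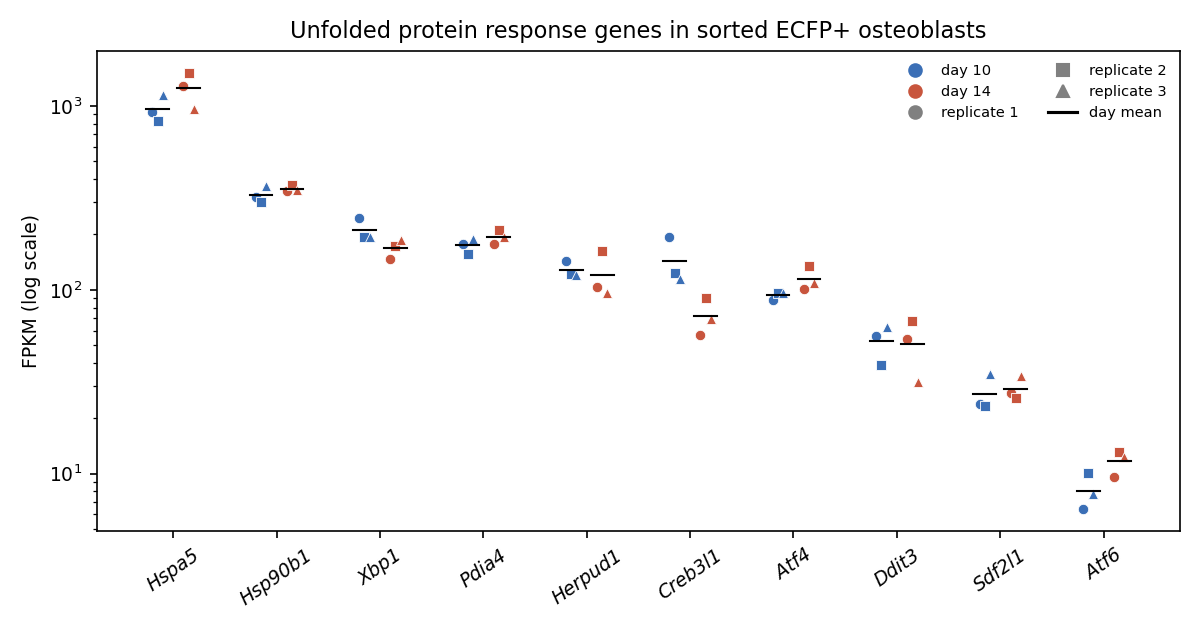
FPKM of each of the 10 genes on a log axis, with 1 point per sample, for day 10 and day 14 (3 samples each). *Hspa5* lies between 830 and 1518 FPKM and *Atf6* between 6.38 and 13.1 FPKM, and the days lie apart for *Xbp1*, *Atf4* and *Creb3l1*.

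Between the days, limma gave an adjusted p under 0.05 for 0 of the members, against 0.0154% of all 19526 genes tested. At an unadjusted p under 0.05, *Atf6* was higher on day 14 (1 gene; 5.6% of all genes) and *Creb3l1* was lower (1 gene; 4.4% of all genes), which makes 2 of 10 against 10.0% of all genes in either direction. The samples of the days did not overlap for *Atf4*, which was higher on day 14 (background 7.59%), and for *Xbp1* and *Creb3l1*, which were lower (background 6.67%). The mean was higher on day 14 for 6 members (46.5% of all genes) and lower for 4 (53.5%). None of the 10 changed by more than 2-fold, against 13.6% of all genes. That share is over all genes above 0.1 FPKM, whereas the members had means of 9.86 to 1111 FPKM. *Creb3l1* was near the limit. Its log2 fold change was −1.001 with the FPKM rescaled to the same sum, −1.15 without day 14 replicate 2 and −0.74 without day 10 replicate 1. The median log2 fold change was 0.11 for the members and −0.04 for all genes.

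*Creb3l1* (mm10, GENCODE vM21, chr2:91982328-92024502, − strand) had the largest difference of the 10. Its level was 193, 124 and 114 FPKM in day 10 replicates 1, 2 and 3 and 56.9, 90.6 and 69.3 FPKM in day 14 replicates 1, 2 and 3. Every day 14 sample was thus below every day 10 sample, and the means were 143 ± 42.7 and 72.3 ± 17.1 FPKM (SD, n = 3 each). The log2 fold change was −0.98 with an SE of 0.247 and a 95% interval of −1.54 to −0.41, and the adjusted p from limma was 0.309. With 3 samples on each day the exact two-sided permutation test cannot give a p below 0.1, the value it gave here. Without day 14 replicate 2 the log2 fold change was −1.15. All 8 OB markers also had a lower mean on day 14 (53.5% of all genes), with a median log2 fold change of −1.49. At an unadjusted p under 0.05, 2 of them were lower (4.4% of all genes), and the smallest adjusted p from limma was 0.309. The days did not overlap for 1 of them, *Sp7* (log2 fold change −2.34), against 6.67% of all genes. The part of the OB markers in the result was not tested. In bulk samples, fewer cells of a type and less RNA per cell cannot be told apart.

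*Xbp1* (chr11:5520659-5525893, + strand), the target of IRE1, had 245, 193 and 193 FPKM in the day 10 samples, against 148, 173 and 186 FPKM in those of day 14. The day 14 samples were all lower, and the nearest samples of the days were at 186 and 193 FPKM. Between the days it differed by a log2 fold change of −0.31 (SE 0.174, 95% interval −0.71 to 0.09), with an adjusted p of 0.606 from limma. When the FPKM were rescaled to the same sum in every sample, the days overlapped for *Xbp1* and for *Atf4* and stayed apart for *Creb3l1*.

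*Atf4* (chr15:80255184-80257541, + strand), the factor downstream of PERK, had 88.5, 95.8 and 95.6 FPKM on day 10 and 101, 134 and 108 FPKM on day 14. The day 14 samples were all higher, with the highest value in replicate 2. The log2 fold change was 0.28 (SE 0.158, 95% interval −0.08 to 0.64), and the adjusted p from limma was 0.607. Without day 14 replicate 2 it was 0.16. ATF4 is controlled mainly in translation, which these values do not show.

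*Atf6*, which encodes the third sensor itself, had 6.38, 10.1 and 7.75 FPKM on day 10 and 9.55, 13.1 and 12.3 FPKM on day 14. Day 14 replicate 1 was below day 10 replicate 2, so the days overlapped. This gave a log2 fold change of 0.54 (SE 0.224, 95% interval 0.02 to 1.05), with an adjusted p of 0.478 from limma, and the exact permutation test gave a two-sided p of 0.2. Its unadjusted p was no longer under 0.05 when day 10 replicate 1, day 10 replicate 3, day 14 replicate 2 or day 14 replicate 3 was left out.

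*Ddit3* encodes CHOP, a factor linked to cell death under lasting ER stress. Its level was 56.3, 39.2 and 62.5 FPKM in the day 10 samples, against 54.1, 67.3 and 31.6 FPKM in those of day 14. The days overlapped fully, with the highest and the lowest sample both on day 14. Its log2 fold change was −0.09 (SE 0.293, 95% interval −0.76 to 0.58), and the adjusted p from limma was 0.961. Exons of *Ddit3* share 68 bases with *Mars* on the opposite strand, and the kit is not stated to keep the strand. GENCODE holds 2 genes named *Ddit3*, whose exons share 105 bases on the same strand. Which of them the FPKM cover is not given in the sources used here.

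**Figure D2:**
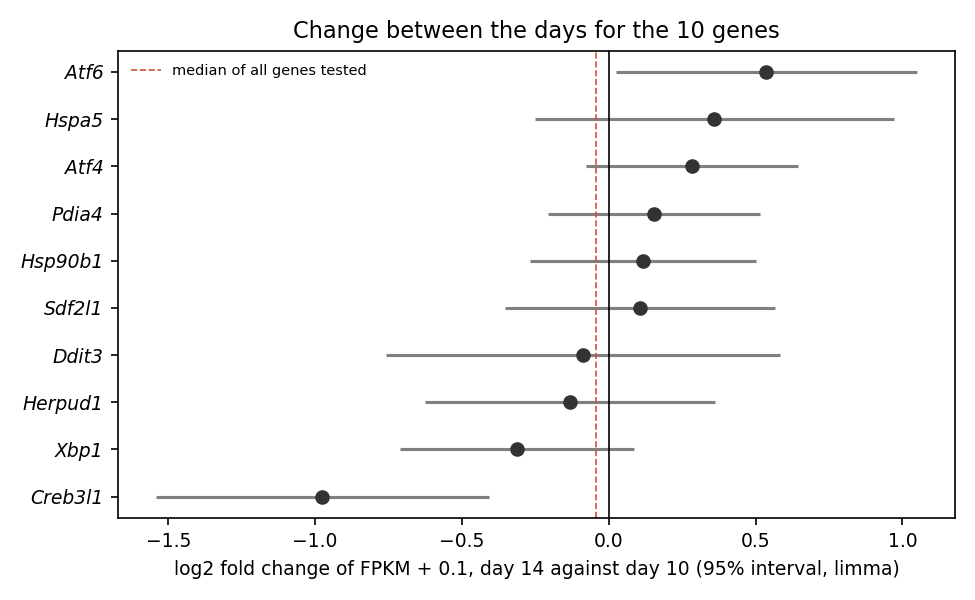
Log2 fold change from day 10 to day 14 on log2(FPKM + 0.1) for each of the 10 genes, with 95% intervals from limma. The intervals of *Creb3l1* (−1.54 to −0.41) and *Atf6* (0.02 to 1.05) do not reach 0, and no adjusted p was under 0.05.

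Among the chaperones, *Hspa5* had 927, 830 and 1148 FPKM in the day 10 samples, against 1281, 1518 and 959 FPKM in those of day 14. Day 14 replicate 3 lay within the range of day 10. The means were 968 ± 163 and 1253 ± 281 FPKM (SD, n = 3 each). The log2 fold change was 0.36 (SE 0.266, 95% interval −0.25 to 0.97), with an adjusted p of 0.724 from limma.

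*Hsp90b1*, the ER member of the HSP90 family, had 319, 299.7 and 366 FPKM on day 10 and 343, 373 and 348 FPKM on day 14. It varied least of the 10 genes, the highest sample being 1.24 times the lowest. Its exons share 415 bases with *1810014B01Rik* on the opposite strand. Its log2 fold change was 0.12 (SE 0.168, 95% interval −0.27 to 0.50), and the adjusted p from limma was 0.880. *Pdia4*, a disulphide isomerase, had 178, 157 and 189 FPKM on day 10 and 176, 211 and 195 FPKM on day 14. Its days overlapped, with a log2 fold change of 0.15 (SE 0.158) and an adjusted p of 0.817 from limma.

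*Sdf2l1*, a cofactor of BiP, had 23.8, 23.2 and 34.6 FPKM on day 10 and 27.4, 25.6 and 33.9 FPKM on day 14. Replicate 3 was the highest sample on both days. Its log2 fold change was 0.11 (SE 0.201), with an adjusted p of 0.917 from limma. *Herpud1*, an ERAD factor of the ER membrane, had 143, 122 and 121 FPKM on day 10 and 103, 162 and 96.1 FPKM on day 14. Replicate 2 was the highest of all 6 samples and the other day 14 samples were the lowest. The log2 fold change was −0.13 (SE 0.216) with an adjusted p of 0.901 from limma, and without day 14 replicate 2 it was −0.36, with the days apart.

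Replicates of a day varied visibly in these genes. The median within-day SD on the log2 scale was 0.279 for the members and 0.233 for the 4605 genes with a mean of at least 10 FPKM. Day 14 replicate 2 held the highest value of all 6 samples for 7 members, namely *Atf4*, *Atf6*, *Hspa5*, *Ddit3*, *Herpud1*, *Hsp90b1* and *Pdia4*. The share of all genes with their highest value in this sample was not counted, so the 7 cannot be read as particular to these genes. Its FPKM sum was 486940, against 431898 to 486684 in the other samples. It had 16646 genes above 0, against 17630 to 19698 in the others. It is also the sample with the highest chondrocyte and the lowest myeloid sum. The part of these traits in the values was not tested.

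**Figure D3:**
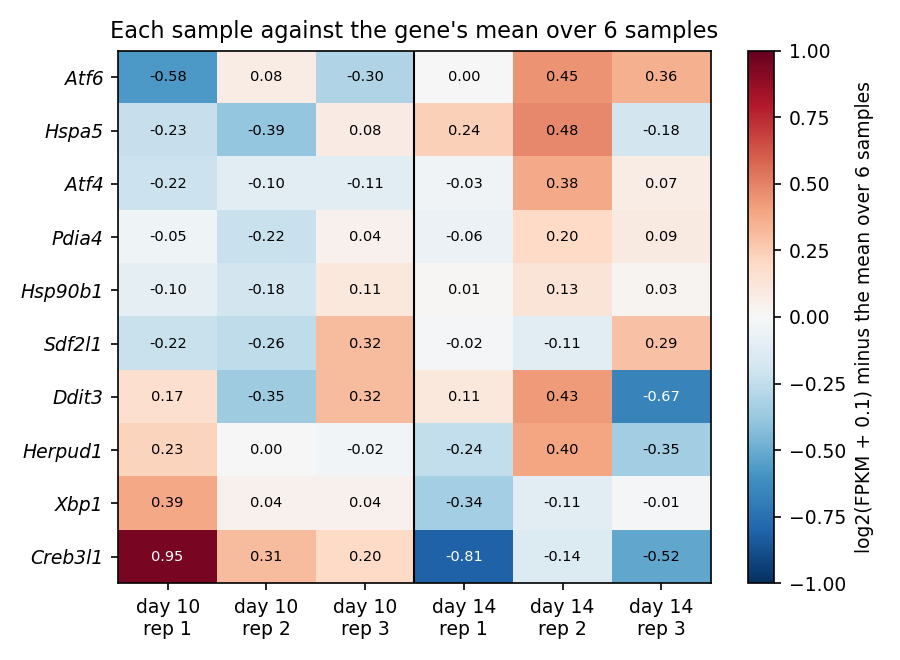
Each member's log2(FPKM + 0.1) in each sample minus its mean over the 6 samples, with samples as columns and genes as rows. Most cells of day 14 replicate 2 lie above 0, and *Creb3l1* is above 0 in the samples of day 10 and below 0 in those of day 14.

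The sensors, their proteases and the relatives of *Atf6* and *Creb3l1* formed a list of 11 genes, of which none had an adjusted p under 0.05. At an unadjusted p under 0.05, 1 was higher (5.6% of all genes) and 1 was lower (4.4% of all genes) on day 14, and the median log2 fold change was 0.04. The one that was higher was *Creb3l2* (BBF2H7), a relative of *Creb3l1* known for its role in cartilage. It had 15.5, 18.4 and 21.7 FPKM on day 10 and 24.95, 27.8 and 30.9 FPKM on day 14, with a log2 fold change of 0.60 and an adjusted p of 0.340 from limma. The other was *Creb3l3*, at 34.2, 29.1 and 24.8 FPKM on day 10 and 23.6, 22.8 and 15.3 FPKM on day 14. The lower count was 0 without day 10 replicate 1 or 2 or without the mean-variance trend, and the higher count was 2 without day 14 replicate 1. The ratio of *Creb3l1* to *Creb3l2*, chosen after their values were seen, was 12.4, 6.72 and 5.27 on day 10 and 2.28, 3.26 and 2.24 on day 14.

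*Mbtps1*, the protease that cuts ATF6 and CREB3L1 in the Golgi, had 36.8 to 38.5 FPKM on day 10 and 44.3 to 47.4 FPKM on day 14 (log2 fold change 0.28; adjusted p 0.519 from limma). *Creb3* had a log2 fold change of −0.03 and *D10Wsu52e*, the RNA ligase that rejoins *Xbp1*, one of −0.19. Of the sensors of the other arms, named for their role, *Eif2ak3* (PERK) had 12.4, 10.3 and 10.6 FPKM on day 10 and 8.62, 7.35 and 9.33 FPKM on day 14, a log2 fold change of −0.39. *Ern1* (IRE1α) was at 2.93 to 4.001 FPKM in all 6 samples.

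In the list of 15 genes around PERK and ATF4, 1 was higher and 3 were lower at an unadjusted p under 0.05, against 5.6% and 4.4% of all genes, and none passed after adjustment. The median log2 fold change was −0.10. The count of 3 was 1 without day 10 replicate 1 or 2, without day 14 replicate 1 or 3, or without the mean-variance trend. The higher count was 0 without day 10 replicate 1, day 14 replicate 3 or the trend, or with the FPKM rescaled to the same sum. The gene that was higher was *Ppp1r15b*, a subunit of an eIF2α phosphatase, at 15.5, 17.6 and 19.3 FPKM on day 10 and 21.0, 22.6 and 29.9 FPKM on day 14 (log2 fold change 0.48; adjusted p 0.442 from limma). *Psat1*, of serine synthesis, had 25.03, 16.8 and 18.4 FPKM on day 10 and 5.90, 12.7 and 5.91 FPKM on day 14 (log2 fold change −1.36; adjusted p 0.301 from limma). *Chac1*, which degrades glutathione, had 13.8, 6.93 and 9.33 FPKM on day 10 and 0.803, 9.15 and 1.25 FPKM on day 14. Its low day 14 values were in replicates 1 and 3. *Asns*, of asparagine synthesis, was lowest in the same samples, with 41.3, 30.0 and 23.7 FPKM on day 10 and 10.7, 29.8 and 14.2 FPKM on day 14. The most abundant genes of the list, *Nupr1*, *Atf3* and *Cebpb*, overlapped between the days.

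Of 21 further ER chaperones and folding enzymes, 2 were lower and 0 higher at an unadjusted p under 0.05, against 4.4% and 5.6% of all genes, and none passed limma's adjusted threshold. The lower count was 1 without day 10 replicate 1 or 3, without day 14 replicate 1 or 2, or without the trend. The median log2 fold change was 0.03. *Fkbp11*, a prolyl isomerase, had 359, 266 and 232 FPKM on day 10 and 118, 185 and 105 FPKM on day 14 (log2 fold change −1.09; adjusted p 0.305 from limma). *Fkbp2* had a log2 fold change of −0.45. *P4hb*, the isomerase that is also a subunit of the collagen prolyl hydroxylase, had 1061, 890 and 942 FPKM on day 10 and 692, 871 and 846 FPKM on day 14. *Ppib* and *Pdia3* overlapped between the days, with log2 fold changes of −0.23 and 0.13.

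Of 17 ERAD genes, 1 was higher and 2 were lower at an unadjusted p under 0.05, against 5.6% and 4.4% of all genes, with a median log2 fold change near 0 and none past the adjusted threshold. The lower count was 1 without day 10 replicate 1 or 3 or day 14 replicate 1. Without day 14 replicate 1 the higher count was 4, without day 10 replicate 2 it was 2, and without the mean-variance trend both counts were 0. The ligase gene *Syvn1* (HRD1) had 20.2, 18.6 and 18.1 FPKM on day 10 and 14.1, 14.3 and 12.8 FPKM on day 14, a log2 fold change of −0.46. Its partner *Sel1l* had 23.7, 25.3 and 27.7 FPKM on day 10 and 33.7, 34.1 and 33.3 FPKM on day 14, a log2 fold change of 0.40. For both genes the days did not overlap, in opposite directions, with adjusted p of 0.373 and 0.397 from limma. *H47* (selenoprotein S) had a log2 fold change of −0.48 and *Os9* one of 0.01.

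The translocon, through which nascent chains enter the ER, was represented by 17 genes. Of these, 7 were lower and 0 higher at an unadjusted p under 0.05, and 8 were lower with no overlap of the days, against the 4.4% and 6.67% of all genes given above. None had an adjusted p under 0.05, and the median log2 fold change was −0.25. *Ssr4* had 433, 371 and 315 FPKM on day 10 and 220.0, 272 and 225 FPKM on day 14. *Sec61a1*, the channel itself, had 434, 324 and 328 FPKM on day 10 and 198, 289 and 252 FPKM on day 14. *Ssr3* had a log2 fold change of −0.15. *Sec61g*, one of the 7 and of the 8, had one of −1.54, but at only 0.507 to 4.26 FPKM. Its reads were not estimated, so the counting error of this change is not known. The count of 7 was 3 without day 10 replicate 1 (1.92% of all genes in the same fit), without day 14 replicate 3 (2.98%) or without the mean-variance trend (3.17%), and 4 without day 14 replicate 1 (8.45%). Over all 13 alternatives the median was −0.34 to −0.15, and 8 to 10 genes were lower with no overlap. The share of all genes lower with no overlap ran from 6.21% to 18.7% over these alternatives. It was 18.7% without day 14 replicate 1, where 8 translocon genes were lower and 2 higher with no overlap (12.7% of all genes higher).

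Chaperones of the cytosol and mitochondria, which work outside the ER, were set beside these genes. All 12 were higher on day 14 with no overlap of the days, against 7.59% of all genes, and 11 of them had an unadjusted p under 0.05, against 5.6%. The median log2 fold change was 0.85. The count of 11 was 7 without the mean-variance trend and 8 to 11 when single samples were left out. None passed after adjustment over all genes, the smallest adjusted p from limma being 0.1001 for *Hsph1*. *Hsph1* had 12.9, 10.9 and 14.6 FPKM on day 10 and 36.7, 45.1 and 31.7 FPKM on day 14, and *Hspa1b* had 87.8, 34.8 and 86.4 FPKM against 220.4, 190.5 and 162 FPKM. *Dnajb1*, *Dnaja1* and *Hsp90ab1* had log2 fold changes of 1.05, 0.93 and 0.46. Heat shock genes can be induced while tissue is digested, and the number of digestions cannot be told apart from the day. Immediate-early genes, also known to react to digestion, had 0 of 9 at an unadjusted p under 0.05, against 10.0% of all genes. In so short a list a count of 0 lies near that share. Their smallest adjusted p from limma was 0.553. The mean was higher on day 14 for 7 of them (46.5% of all genes), with a median log2 fold change of 0.23. *Fos*, *Dusp1* and *Egr1* overlapped between the days, and *Ier3* was higher on day 14 with no overlap (1 of the 9, against 7.59% of all genes).

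**Figure D4:**
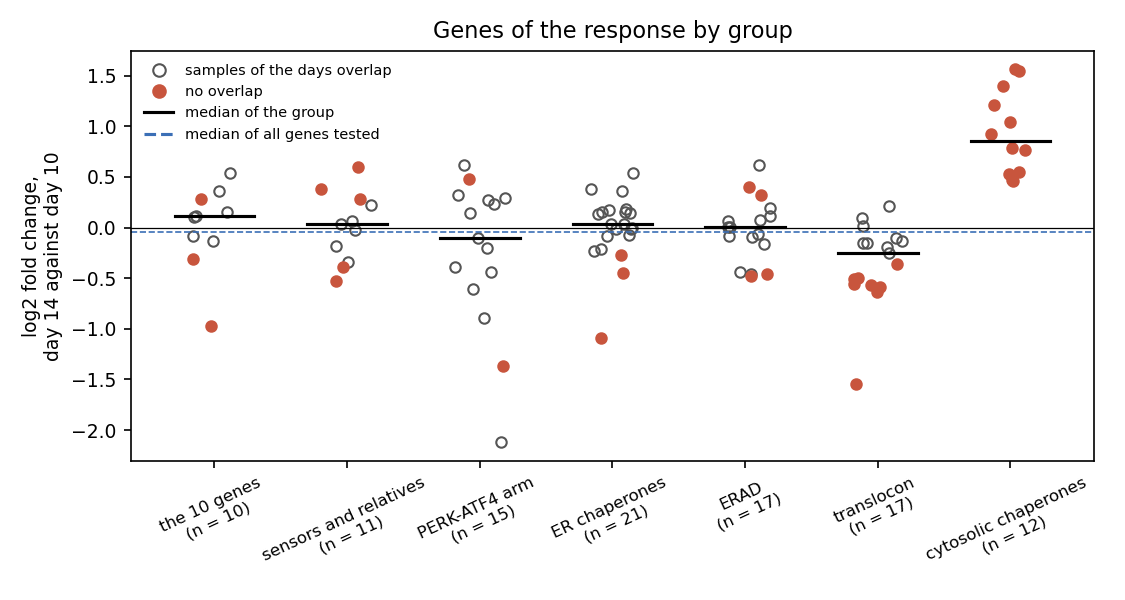
Log2 fold change from day 10 to day 14 of each gene (points) in the members and the other lists, with the median of each list as a black bar. The medians are 0.11 for the members, −0.25 for the translocon and 0.85 for the cytosolic chaperones.

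The main secreted cargo of OBs varied widely between samples. *Col1a1* had 27384, 34157 and 17339 FPKM on day 10 and 15730, 21088 and 14151 FPKM on day 14, and *Col1a2* had 16541, 21942 and 11115 FPKM against 11028, 14525 and 10581 FPKM. The days overlapped for both.

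The genes whose log2 level followed a member most closely over the 6 samples were sought among 4604 genes with a mean of at least 10 FPKM. For *Hspa5* these were *Hbegf* (Pearson r 0.995), *Decr2* (0.979), *Kirrel* (0.9749), *Katna1* (0.966) and *Ndrg3* (0.965). For *Creb3l1* they included *Leprel4* (0.996), *Lepre1* (0.991), *Copz2* (0.991) and *Mrpl10* (0.991). *Leprel4* had 190, 136 and 115 FPKM on day 10 and 62.3, 99.7 and 76.7 FPKM on day 14. These values describe a likeness over only 6 samples, picked as the highest among many genes. Both genes of a pair were measured in the same libraries.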

How the data were processed

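RNA-seq of ECFP+ OBs from 3 day 10 and 3 day 14 samples was used. Reads of 75 bases from 1 end were mapped to mm10 by the authors, using TopHat2 2.0.13, Bowtie2 2.2.3 and SAMtools 0.1.19; they deposited FPKM per gene from Cufflinks 2.2.1. The gene annotation they used is not given in the sources used here. In 1 file, 25 symbols that had become dates were restored by position.

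Genes with a mean above 0.1 FPKM (19526, all members included) were compared on log2(FPKM + 0.1) with limma 3.58.1 in R 4.3.3, with a mean-variance trend and the day as the only factor. Fold changes on this scale understate the change of low genes. P-values were adjusted after Benjamini and Hochberg over all of them. The method was tested on simulated data with changes larger than that of any member. That test does not show how often changes of the members' size would be found. Exact permutation tests were two-sided. Read depth was estimated from values up to 0.3 FPKM of 1977 genes, with 74.7% to 79.7% of values within 0.1 of a whole read. FPKM keep no counts, and the estimates cover counting error only.

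The members and lists were chosen with earlier results of these data known. In addition to the members, the text names in each list the 3 genes with the highest mean FPKM and the 2 with the smallest p, the 5 genes most like *Hspa5* and *Creb3l1*, and *Col1a1* and *Col1a2*. Some genes that this rule names are not reported here. *Eif2ak3*, *Ern1*, *Asns*, *Ppp1r15b*, *Sp7*, *Dlx5*, *Ibsp* and ratios were added after values were seen. Alternatives were the pseudocount, the filter, the scaling, the trend, the replicate block and leaving out each sample.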

Additional observations from a re-analysis of the deposited data

How the results depend on the processing

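Over 13 alternatives, limma's adjusted p was under 0.05 for no member (2 members, *Atf6* and *Creb3l1*, were under 0.05 unadjusted with the settings reported). With the FPKM rescaled to the same sum, 0 members were higher and 1 (*Creb3l1*) was lower with no overlap of the days, and without the mean-variance trend 0 were higher at an unadjusted p under 0.05. Leaving out each sample in turn, 0 to 2 members were higher at an unadjusted p under 0.05, and 1 to 4 were higher (4 without day 10 replicate 3, 3 without day 14 replicate 1) and 2 to 3 lower (3 without day 14 replicate 2) with no overlap of the days. With 1 sample fewer, 9.42% to 15.4% of all genes were higher and 8.97% to 18.7% lower with no overlap, so these counts cannot be read as a gain. The log2 fold change of *Creb3l1* ran from −1.15 to −0.74, that of *Ddit3* from −0.32 to 0.22, that of *Herpud1* from −0.36 to 0.01 and that of *Sdf2l1* from −0.01 to 0.29. The sign turned for *Ddit3* without day 10 replicate 3 (0.05) or day 14 replicate 3 (0.22), and for *Herpud1* (0.0103) and *Sdf2l1* (−0.0118) without day 14 replicate 3. The cause was not tested.

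With the replicate number as a block, the median log2 fold change of the members was 0.11, and 1 was higher and 1 lower at an unadjusted p under 0.05. Between samples with the same number, departures from the mean of the day correlated at 0.058, −0.00584 and 0.0887 across genes. The estimated depth was highest in replicate 3 on both days (7790230 and 7064348 reads). It was lowest in replicate 1 on both days (4903623 and 4557380 reads). Whether samples with the same number shared a batch was not tested. The adjusted p of *Creb3l1* from limma ran from 0.172 to 0.976 over the alternatives.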
